A study of Mus musculus with 18 samples.

Results

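Oligodendrocytes are the myelinating glia of the central nervous system, and a small set of transcription factors leads neural precursors into their lineage. The 9 genes Olig1, Olig2, Sox10, Sox8, Nkx2-2, Nkx6-2, Zfp488, St18 and Myt1 were followed in control and HPRT-knockdown mouse embryonic stem cells at 3 stages of neuronal differentiation. They were found by their gene symbols on the array, which gave 12 of its 45281 probes and 9 of its 30869 symbols. Sox8, Nkx2-2 and Nkx6-2 have 2 probes each and the other 6 genes 1 probe each. A gene is given by the probe with the highest mean log2 signal over the 18 arrays, and any other probe of it is reported beside it. At the neuronal stage all 9 genes were called higher in the knockdown cells, where 13.9% of all probes tested were called higher. Olig2 and Zfp488 were tested only because the knockdown arrays detected them, which fixed their direction, so 7 of the 9 genes are informative here. Zfp488, not detected in control cells, was at least 1.275-fold higher, and the others were higher by 1.71-fold (Myt1) to 57.7-fold (Sox10). One stage earlier Sox10 was called lower in knockdown cells and 3 of the other genes higher, where 11% of probes were called higher and 8.90% lower. Of these 3 genes, Sox8 and Nkx2-2 lost their calls under several other settings.

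The cells were D3 embryonic stem cells (ESD3) of strain 129s2/SvPas. Control cells were infected with a retrovirus carrying an shRNA against luciferase, and knockdown cells with one carrying an shRNA against HPRT, the purine salvage enzyme hypoxanthine-guanine phosphoribosyltransferase. Per the study's methods the vectors were lentiviral, the HPRT shRNA was directed at the human gene, both cell types were selected with puromycin, and sonic hedgehog and FGF8 were among the differentiation reagents. RNA was taken at the ES stage, where cells were kept on mouse embryo fibroblast feeders with LIF and bFGF, at the spherical neural mass (SNM) stage, where they grow as aggregates of neural precursors, and at the final neuronal stage. Each of these 6 conditions is 1 pool of RNA from replicate cultures, hybridised to 3 Illumina MouseWG-6 v2 arrays. Every SD and p-value below therefore measures the spread between arrays of 1 pool and not between cultures. In RNA of whole cultures, fewer cells expressing a gene and less of its RNA per cell cannot be told apart.

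Olig1 and Olig2 are basic helix-loop-helix factors, and Olig2 is needed to specify both motor neurons and oligodendrocyte precursors in the ventral neural tube. The homeobox factors Nkx2-2 and Nkx6-2 also act in the ventral neural tube, downstream of sonic hedgehog, and later in oligodendrocyte maturation. Sox10, with its close relative Sox8, drives the myelin genes directly, while the zinc finger proteins Myt1, St18 (Myt3) and Zfp488 act within the lineage or in neighbouring neural and endocrine programmes.

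Signals are on the log2 scale after background correction and quantile normalisation, except the summed signals of marker lists, which are deposited intensities. A probe counts as detected on an array at a detection p-value under 0.05. Testing was limited to probes detected on the 3 arrays of 1 or more of the conditions compared, and a call needed an adjusted p under 0.05 (limma, Benjamini-Hochberg over all probes tested) together with a change of at least 1.5-fold. With 3 arrays a side, the smallest p of an exact permutation test is 0.1, so p-values are limma's, and the t-tests named in the study's methods appear only in counts of calls. The arrays detected between 18827 and 22202 probes each, and arrays of 1 condition correlated at 0.992 to 0.997 across probes, which are not independent. The targeted gene, listed as Hprt1, was 94.1%, 70.5% and 95.4% below control after knockdown at the ES, SNM and neuronal stages in turn. At the ES stage 6 of 6 pluripotency markers, among them Pou5f1 and Nanog, were detected on all arrays of both cell types. Of 15 neuron markers on the array, 13 were detected on all 3 control arrays and 11 on all 3 knockdown arrays of the neuronal stage.

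The mouse RefSeq table of promoter sequences (build GRCm38.p6) held 6 of the 9 genes. Olig1, Sox10 and St18 have no entry in it. By the RefSeq gene table Olig1 and Olig2 lie on chromosome 16, Sox10 on chromosome 15, Sox8 on chromosome 17, Nkx2-2 and Myt1 on chromosome 2, Nkx6-2 on chromosome 7, Zfp488 on chromosome 14 and St18 on chromosome 1. The 250 bases before the start site are printed for Olig2, Sox8 and Nkx2-2, because these are the genes with an entry whose condition means ran most closely together, as described further on. Positions are chr16:91225300-91225549 on the plus strand for Olig2, chr17:25570687-25570936 on the minus strand for Sox8 and chr2:147186403-147186652 on the minus strand for Nkx2-2, each written in the direction of the gene. The Olig2 and Sox8 windows end where the annotated gene begins, while the Nkx2-2 window lies within the annotated span of that gene (chr2:147176485-147195434), before an inner start site. Capitals mark matches, on either strand, to 5 motifs. These are an E-box, a Sox core, a site of the Nkx2 class, a TATA box and a CCAAT box.
Olig2: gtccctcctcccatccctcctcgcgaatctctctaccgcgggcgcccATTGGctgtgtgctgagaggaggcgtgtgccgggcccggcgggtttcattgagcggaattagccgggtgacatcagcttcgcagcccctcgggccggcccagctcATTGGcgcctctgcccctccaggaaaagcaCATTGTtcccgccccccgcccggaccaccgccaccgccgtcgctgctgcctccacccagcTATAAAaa
Sox8: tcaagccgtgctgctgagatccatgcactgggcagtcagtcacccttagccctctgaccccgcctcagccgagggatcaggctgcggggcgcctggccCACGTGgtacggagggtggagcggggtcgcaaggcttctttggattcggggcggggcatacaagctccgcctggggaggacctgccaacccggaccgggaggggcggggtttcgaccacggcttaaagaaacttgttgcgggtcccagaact
Nkx2-2: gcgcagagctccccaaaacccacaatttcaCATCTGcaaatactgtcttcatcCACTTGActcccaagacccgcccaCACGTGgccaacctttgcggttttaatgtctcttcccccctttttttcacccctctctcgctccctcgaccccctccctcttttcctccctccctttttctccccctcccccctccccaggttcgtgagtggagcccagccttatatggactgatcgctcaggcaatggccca

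In the Nkx2-2 window there are 3 matches to the E-box CANNTG, the core bound by helix-loop-helix factors such as the Olig proteins. The middle one overlaps the only match there to the Nkx2 site, which was searched as CACTTNA. The Sox8 window holds 1 E-box. In the Olig2 window, which has no E-box, there is a match to the Sox core, written ACAANG and bound by factors such as Sox10. Near its end that window has a TATA box, TATAAA, and it holds 2 CCAAT boxes. The site GACCACCCA of the Gli factors, the effectors of sonic hedgehog, was searched on both strands and is in none of the 3 windows. Among all 32851 start sites of the table, 66.2% hold an E-box in such a window, 36.3% a Sox core, 33.8% a CCAAT box, 12.4% a TATA box, 10.1% the Nkx2 site and 0.225% the Gli site. These matches describe the letters only.

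At the ES stage most of the lineage factors were near the background. Only Olig1 and Nkx2-2 could be tested between knockdown and control cells, and of the 9 genes 0 were called higher and 0 lower by limma, where 0.516% of 18411 probes tested were called higher and 1.17% lower. At an unadjusted p under 0.05, 0 were higher and 1, Nkx2-2, was lower, where 13.7% of probes were higher and 12.1% lower. Wherever limma called 0 of the genes in a direction here or between later conditions, the unpaired and the paired t-test (unadjusted p under 0.05 and 1.5-fold) called 0 as well, where these tests called from 0.364% to 30.5% of all probes. For Nkx2-2 the log2 signals were 5.71, 5.94 and 5.73 on the control arrays and 5.61, 5.22 and 5.24 on the knockdown arrays, which did not overlap. The log2 difference was -0.43 (standard error 0.09, adjusted p = 0.00748), a 1.35-fold change that is under the minimum. The dimmer Nkx2-2 probe was not detected on any ES array and could not be tested, so this difference rests on the brighter probe. Olig1, detected on 2 of 3 control and 3 of 3 knockdown arrays, gave a log2 difference of 0.23 with a 95% interval of -0.07 to 0.53 (adjusted p = 0.332 from limma). The other 7 genes were detected on between 0 and 2 of the 3 arrays in each cell type.

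Among SNM cells 8 of the 9 genes were tested, all but Zfp488, and with the knockdown 3 were called higher and 1 lower, where 11% of 20765 probes were called higher and 8.90% lower. The genes that rose were Nkx6-2, Sox8 and Nkx2-2, and the one that fell was Sox10. The median log2 difference of the 8 genes was 0.31, against -0.04 for all probes tested. In the neuronal cells 9 genes were tested and 9 were called higher, with 0 lower, where 13.9% of 20893 probes were called higher and 13.5% lower. The median log2 difference was 2.08, against 0.01 for all probes. At an unadjusted p under 0.05, 0 were lower too, where 30.6% of probes were. Of the 9 genes 7 were detected on all arrays of both cell types, and the other 2, Olig2 and Zfp488, entered the test through the knockdown arrays, so that their direction was fixed by the detection filter.

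**Figure D1:**
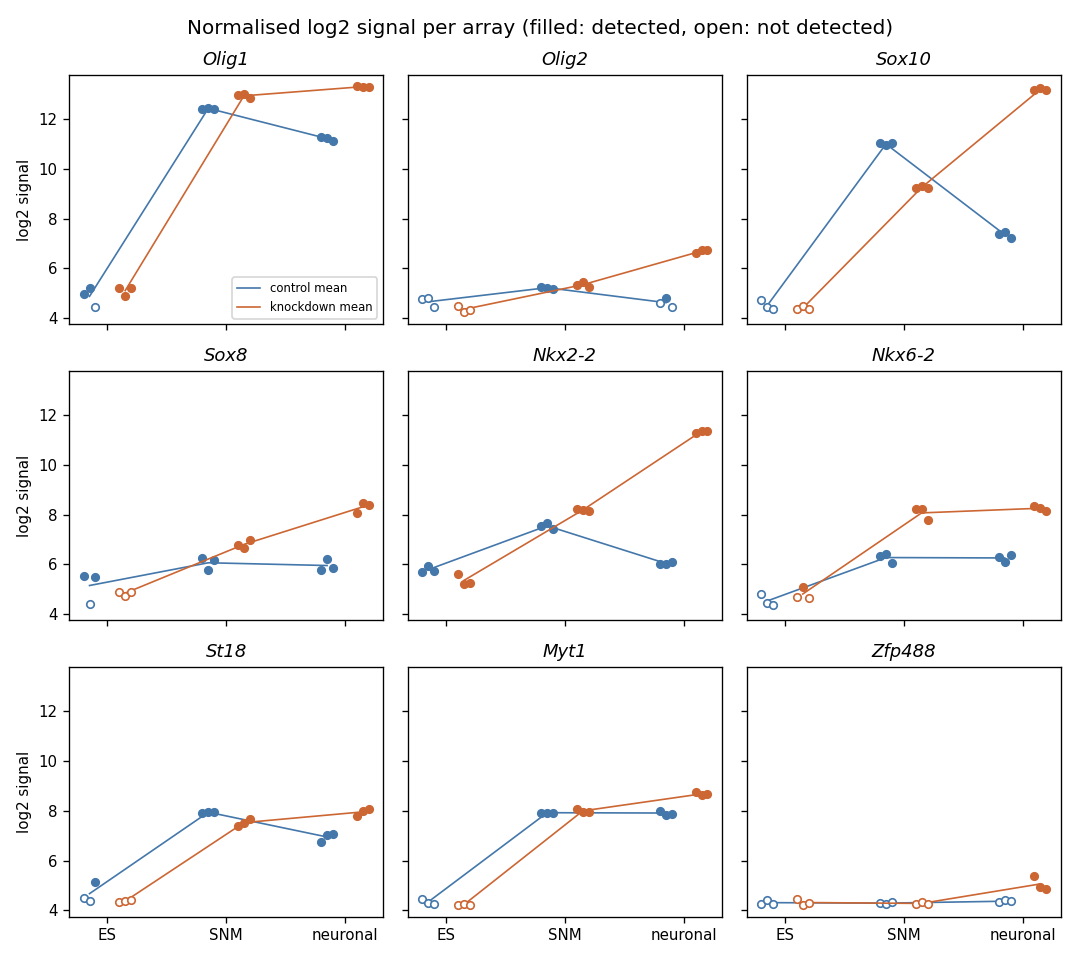
Normalised log2 signal of each lineage factor on each of the 18 arrays (vertical axis, 1 point per array) at the ES, SNM and neuronal stages (horizontal axis), with lines joining the means of 3 arrays in control (blue) and HPRT-knockdown cells (orange). Filled points are detected at a p-value under 0.05 and open points are not; Sox10 falls to a mean of 7.36 in control neuronal cells and reaches 13.21 in knockdown neuronal cells.

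Sox10, the SoxE factor that activates myelin genes in oligodendrocytes and also marks the neural crest, was detected on all arrays of the SNM and neuronal stages. Its log2 signals at the SNM stage were 11.03, 10.95 and 11.04 on the control arrays and 9.22, 9.32 and 9.23 on the knockdown arrays. Neuronal cells gave 7.37, 7.45 and 7.24 in control and 13.18, 13.27 and 13.16 with the knockdown. The order of the cell types was thus opposite at the 2 stages, with no overlap at either. In the knockdown cells the SNM signal was 3.36-fold lower (log2 difference -1.75, standard error 0.08, adjusted p = 6.25e-11) and the neuronal signal 57.7-fold higher (log2 difference 5.85, standard error 0.08, adjusted p = 6.66e-18). At the ES stage Sox10 was detected on 0 of 6 arrays.

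Sox8, another SoxE gene, was higher in knockdown cells at both later stages. Its brighter probe gave log2 signals of 6.25, 5.78 and 6.17 on the control arrays of the SNM stage and 6.77, 6.65 and 7.0 on the knockdown arrays. Neuronal cells gave 5.77, 6.24 and 5.87 in control and 8.08, 8.47 and 8.40 in knockdown. Knockdown arrays lay above control arrays at both stages, by 0.74 (standard error 0.24, adjusted p = 0.0157) and by 2.36 (standard error 0.24, adjusted p = 3.12e-07) on the log2 scale. The other Sox8 probe was also called at both stages, with log2 differences of 0.68 and 1.61. The SNM call was lost without control array 2, at a log2 difference of 0.59 (adjusted p = 0.0736 from limma), and without knockdown array 3, at 0.64 (adjusted p = 0.0583).

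Nkx2-2, the homeobox factor of the most ventral neural progenitors and of maturing oligodendrocytes, was detected on all 18 arrays. Control SNM arrays gave log2 signals of 7.54, 7.68 and 7.45 and knockdown SNM arrays 8.25, 8.19 and 8.14. Neuronal arrays gave 6.01, 6.03 and 6.08 in control and 11.31, 11.39 and 11.39 in knockdown cells. Neuronal knockdown cells stood far above every other condition, and control neuronal cells lay close to the ES level of the gene. The log2 difference between knockdown and control was 0.64 (standard error 0.09, adjusted p = 3.27e-05) at the SNM stage and 5.32 (standard error 0.09, adjusted p = 1.13e-16) at the neuronal stage, the latter a 39.9-fold change. The dimmer probe of the gene was not detected in control neuronal cells, so that its rise with the knockdown was at least 8.54-fold. Among SNM cells it differed by 0.47 on the log2 scale and was not called, and the brighter probe missed the 1.5-fold minimum without control array 3 (0.58).

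Nkx6-2, a homeobox repressor of the ventral neural tube that later takes part in myelination, had a difference of similar size at the SNM and the neuronal stage. Its log2 signals in SNM cells were 6.34, 6.44 and 6.05 in control and 8.22, 8.24 and 7.77 in knockdown cells. In neuronal cells they were 6.31, 6.09 and 6.39 in control and 8.35, 8.29 and 8.15 in knockdown cells. The knockdown arrays were higher at both stages without overlap, by 1.80 (standard error 0.16, adjusted p = 1.06e-07) and then by 2.00 (standard error 0.16, adjusted p = 1.41e-08). The second probe gave 1.47 and 2.05 and was called at both.

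Olig1 had nearly its full signal at the SNM stage in both cell types. Its log2 signals there were 12.43, 12.46 and 12.43 in control and 12.98, 13.01 and 12.84 in knockdown cells. In neuronal cells they were 11.28, 11.25 and 11.14 in control and 13.33, 13.30 and 13.30 in knockdown. Knockdown arrays were above control arrays at both stages, but the SNM difference of 0.50 (95% interval 0.20 to 0.81, adjusted p = 0.00624 from limma) was under the 1.5-fold minimum. In neuronal cells the difference was 2.09 (standard error 0.14, adjusted p = 1.98e-09), a 4.25-fold change.

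For Olig2 the signal stayed near the background except in 1 condition. The SNM arrays gave log2 signals of 5.25, 5.23 and 5.19 in control and 5.33, 5.45 and 5.25 in knockdown cells, which overlapped, with a difference of 0.12 (95% interval -0.11 to 0.35, adjusted p = 0.358 from limma). Control neuronal arrays gave 4.61, 4.82 and 4.43, of which 1 was detected, and knockdown neuronal arrays 6.62, 6.74 and 6.75. The neuronal difference of 2.08 (standard error 0.10, adjusted p = 5.82e-11) was a 4.22-fold change.

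Of the zinc finger genes, Myt1 and St18 had neuronal log2 differences of 0.77 and 1.01, under those of the helix-loop-helix, Sox and homeobox genes, which were 2.00 or more. Myt1, which represses non-neural genes and is expressed in early oligodendrocyte precursors and neurons, had log2 signals of 7.93, 7.93 and 7.91 in control and 8.06, 7.97 and 7.96 in knockdown cells at the SNM stage, a difference of 0.07 (95% interval -0.06 to 0.21). Neuronal arrays gave 8.0, 7.85 and 7.88 in control and 8.76, 8.62 and 8.66 in knockdown cells. That difference was 0.77 (standard error 0.06, adjusted p = 1.65e-08), or 1.71-fold, with the knockdown arrays above all control arrays.

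For St18, a paralog of Myt1, the SNM signals were 7.90, 7.97 and 7.97 in control and 7.38, 7.51 and 7.68 in knockdown cells, which were lower without overlap. The difference of -0.42 (standard error 0.15, adjusted p = 0.0267) was under the fold minimum. The neuronal signals were 6.74, 7.04 and 7.07 in control and 7.81, 8.0 and 8.07 in knockdown cells, also without overlap, a 2.01-fold rise (log2 difference 1.01, adjusted p = 2.35e-05 from limma).

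Zfp488, a zinc finger cofactor of Olig2, was detected on 3 of the 18 arrays, all of knockdown neuronal cells, at log2 signals of 5.38, 4.95 and 4.84. Control neuronal arrays gave 4.32, 4.40 and 4.37, none detected, so that the signal was at least 1.275-fold higher in the knockdown cells. The fitted log2 difference, taken against signals at background, was 0.70 (adjusted p = 2.8e-05 from limma). Without knockdown array 1 it was 0.54, under the minimum.

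**Figure D2:**
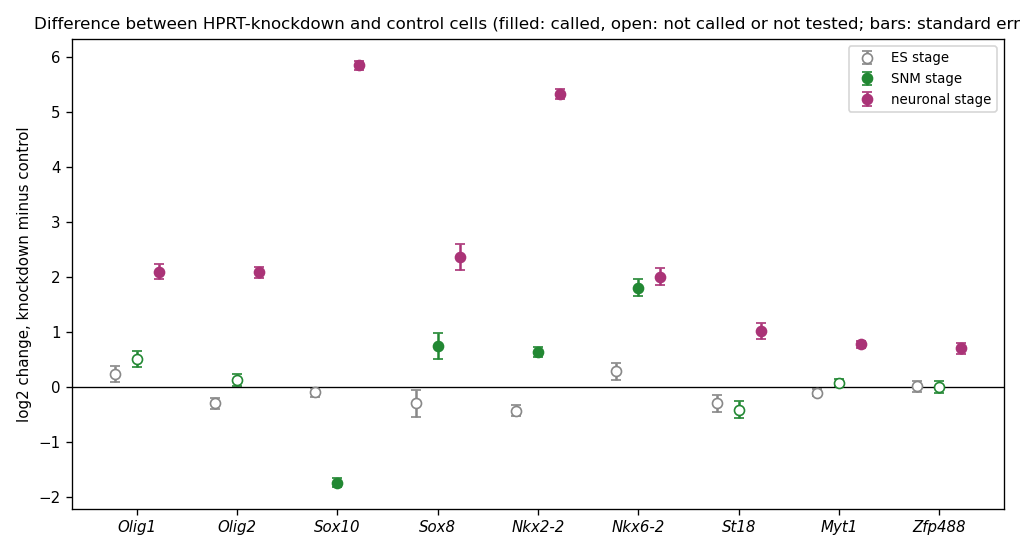
Log2 difference between HPRT-knockdown and control cells (vertical axis) for each lineage factor (horizontal axis) at the ES (grey), SNM (green) and neuronal stages (purple), with the standard error of the limma fit as bars. Filled points are called; Sox10 stands at -1.75 at the SNM stage and at 5.85 at the neuronal stage, and all 9 neuronal points are above 0.

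Whether the knockdown effect itself differed between stages was tested as a difference of differences. Between the ES and SNM stages it was called larger for 3 of the 8 genes tested, Nkx6-2, Nkx2-2 and Sox8, and smaller for 1, Sox10, where 11.7% of probes were called higher and 9.61% lower. Of these only Nkx2-2 could be tested at the ES stage, by its brighter probe. Its dimmer probe, not detected at the ES stage, gave 0.48 and was not called. For Nkx6-2, Sox8 and Sox10 the SNM difference was set against ES signals at or near background, so that no change of a measured effect is shown. From the SNM to the neuronal stage it was larger for 8 of 9 genes and smaller for 0 by limma, where 13.7% of probes were called higher and 14.8% lower. At an unadjusted p under 0.05 it was also smaller for 0, where 25% of probes were lower. The increase was 7.60 log2 units for Sox10 (standard error 0.11, adjusted p = 4.01e-17) and 4.68 for Nkx2-2 (standard error 0.13, adjusted p = 7.12e-14). Olig2, Sox8, Olig1 and St18 gave 1.96, 1.62, 1.59 and 1.43, and Myt1 gave 0.70. The fitted value of Zfp488, 0.71, rests on its knockdown neuronal arrays alone, since it was not detected in the other 3 conditions of the contrast. For Nkx6-2 the change was 0.20 with a 95% interval of -0.27 to 0.68 (adjusted p = 0.477 from limma). Its other probe gave 0.58, with an interval of 0.08 to 1.08, and was not called either (adjusted p = 0.0506 from limma). The other probes of Nkx2-2 and Sox8 gave 2.95 and 0.93 and were called.

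In control cells 7 of 8 genes tested rose from the ES to the SNM stage and 0 fell, where 23.7% of probes were called higher and 25.4% lower. Knockdown cells showed a rise of 8 of 8, with 0 lower, where 26.4% of probes were called higher and 30.9% lower. At an unadjusted p under 0.05 limma also gave 0 lower in each cell type, where 41.7% of probes were lower in control and 44.6% in knockdown cells. In control cells 7 of the 8 genes, and in knockdown cells 6 of the 8, entered the test through the SNM arrays, being detected on fewer than 3 ES arrays, and their direction was fixed by that. Nkx2-2 in both cell types and Olig1 in knockdown cells were detected on all arrays of both stages. Olig1 rose by 7.57 (control) and 7.84 (knockdown) on the log2 scale. Sox10 was at least 70.4-fold higher at the SNM stage in control cells and at least 20.0-fold higher in knockdown cells. Myt1 was at least 8.32-fold and 8.36-fold higher. St18 rose by 3.28 (control), and by at least 6.03-fold with the knockdown. Nkx6-2 rose by at least 2.66-fold in control cells and by 3.26 log2 units with the knockdown, and Nkx2-2 rose by 1.76 and 2.83. The other Nkx6-2 probe rose by at least 1.44-fold and 3.81-fold. The other Nkx2-2 probe was not tested in control cells and rose by at least 1.20-fold with the knockdown. Sox8 rose by 0.92 in control cells, a call that was lost without the dim control ES array 2 (0.54), without background correction under quantile normalisation (0.47) or 75th percentile scaling (0.29), and by both t-tests. With the knockdown it rose by at least 3.66-fold. The other Sox8 probe was not called in control cells (0.49) and rose by at least 1.99-fold with the knockdown. The bound for Olig2 was 1.28-fold in control cells, where it was not called, and 1.33-fold with the knockdown, where the call was lost without background correction (log2 changes of 0.52 with quantile normalisation and 0.31 with 75th percentile scaling). Such bounds apply where a probe was not detected at the ES stage.

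From the SNM to the neuronal stage the 2 cell types parted. Control cells showed a fall of 5 of the 8 genes tested and a rise of 0, where 14.3% of probes were called higher and 15.1% lower. Knockdown cells showed a rise of 6 of 9 genes and a fall of 0, where 13.8% of probes were called higher and 14.8% lower. At an unadjusted p under 0.05 limma also gave 0 higher in control cells, where 28.2% of probes were higher, and 0 lower in knockdown cells, where 34.0% were lower. Olig2 in control and Zfp488 in knockdown cells were each detected on all 3 arrays of only 1 of the stages compared, so that their direction was fixed by the detection filter.

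**Figure D3:**
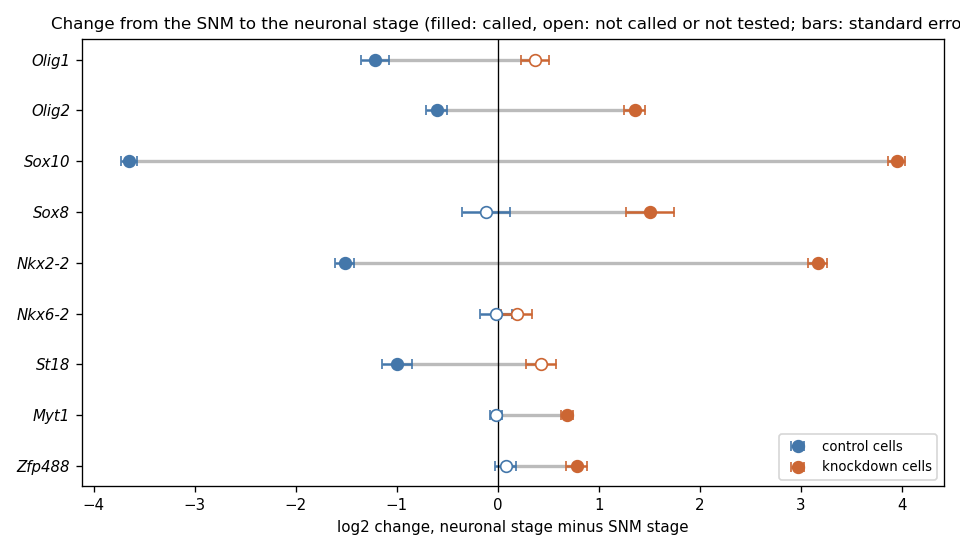
Log2 change from the SNM to the neuronal stage (horizontal axis) of each lineage factor in control (blue) and HPRT-knockdown cells (orange), with standard errors as bars and a grey line joining the cell types. Sox10 lies at -3.65 for control and at 3.95 for knockdown, and the points of Nkx6-2 lie close together near 0.

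The control falls were those of Sox10 (-3.65), Nkx2-2 (-1.51), Olig1 (-1.22), St18 (-1.0) and Olig2 (-0.60). The call of Olig2 was lost without control neuronal array 3 (-0.50), without background correction under quantile normalisation (-0.27) or 75th percentile scaling (-0.32), and by the adjusted paired t-test. In knockdown cells Sox10 rose by 3.95, Nkx2-2 by 3.17, Sox8 by 1.51, Olig2 by 1.36 and Myt1 by 0.68, and Zfp488 was at least 1.30-fold higher. The other probe of Sox8 changed by 0.55 in these cells, under the minimum, and that of Nkx2-2 rose by 2.61. Sox10 and, by its brighter probe, Nkx2-2 were thus called in opposite directions in the 2 cell types. The dimmer Nkx2-2 probe was not tested in control cells (-0.34). Olig2 was also called in opposite directions where its control call held, but the direction of that call was fixed by the detection filter. Olig1 (0.37) and St18 (0.43) were higher in neuronal knockdown cells by less than 1.5-fold. Myt1 in control cells and Nkx6-2 in both moved by less than the minimum, with log2 changes of -0.01, -0.02 and 0.19.

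Each of the 9 genes had its highest mean in the neuronal knockdown cells. For Nkx2-2 the arrays of no 2 neighbouring conditions overlapped in the order neuronal knockdown, SNM knockdown, SNM control, neuronal control, ES control and ES knockdown. Sox10 had the order neuronal knockdown, SNM control, SNM knockdown and neuronal control, and Olig1 neuronal knockdown, SNM knockdown, SNM control and neuronal control. In both genes only the ES conditions, at the end, overlapped. The neuronal knockdown arrays of St18 overlapped its SNM control arrays, and those of Nkx6-2 overlapped its SNM knockdown arrays. For Myt1 the SNM control and neuronal control arrays overlapped, at 7.92 ± 0.01 and 7.91 ± 0.08 (SD over 3 arrays of 1 pool). Neighbouring conditions overlapped in 2 of 5 pairs for Sox8, in 3 of 5 for Olig2 and in 4 of 5 for Zfp488.

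The courses of the genes over the 6 condition means, which share arrays and normalisation, were compared as a description. Pearson's r was highest between Olig2 and Nkx2-2 (0.996), and was 0.973 between Sox8 and Nkx2-2 and 0.961 between Olig2 and Sox8, the genes whose upstream sequences are printed above. Olig1, St18 and Myt1, which reached high signals at the SNM stage, ran together at 0.980 to 0.990. Olig1 and Olig2 correlated at 0.699. The lowest r was 0.396, between Zfp488 and St18.

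Among 9199 other gene symbols whose condition means spanned at least 1 log2 unit, Mbp, the gene of myelin basic protein, had the course most like that of Sox10 (r = 0.998 over 6 condition means). Its mean log2 signal was 8.41 in control and 14.34 in knockdown neuronal cells. F630038O13Rik, A730089E01Rik, Cacng5, a calcium channel gamma subunit, and Pcsk4, a proprotein convertase, followed (r = 0.995 to 0.997). Nearest to Nkx2-2 were Lgi3, Atg16l2, Vwa1, S100a1 and Hey2 (r = 0.993 to 0.996). Of these, Lgi3 was higher by 4.68 and S100a1, a calcium-binding protein, by 4.61 on the log2 scale in knockdown neuronal cells. The polyamine oxidase Smox, 1700021K19Rik, the cholesterol transporter Abca1, Tmco3 and the retinaldehyde dehydrogenase Aldh1a1 were most like Nkx6-2 (r = 0.993 to 0.996). Those nearest to Olig1 were Nat6, LOC100040592, Pex2, Axin2 and Hspa4l, and those nearest to Myt1 were Cxx1c, 4931426K16Rik, 2900024O10Rik, Zc4h2 and Setd7. These last 10 genes differed by 0.27 to 0.85 between knockdown and control neuronal cells.

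The relatives of the 9 genes were mixed in direction. Of 12 paralogs on the array 9 were tested at the neuronal stage, 2 of them higher and 4 lower in the knockdown cells, with a median log2 difference of -0.07. The rises were those of Nkx2-1 (2.76) and Nkx2-4, which was not detected in control cells and was at least 2.20-fold higher. The falls were those of Myt1l, the neuronal relative of Myt1 (-3.73), Nkx2-3 (-2.72), Bhlhe22 (-1.48) and Olig3 (-1.13). Among SNM cells 4 of 9 paralogs were higher and 2 lower, among them Nkx2-1 (6.01), detected on 1 of 3 control arrays, and Nkx2-4, detected on none of them and at least 13.6-fold higher. Sox9, the third SoxE gene and a factor of gliogenesis, differed by 0.77 at the SNM stage, where it was called, and by -0.07 at the neuronal stage, where it was not.

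Of 40 other transcription and chromatin regulators of the lineage, 36 were tested at each of these stages. In neuronal knockdown cells 13 were higher and 6 lower, with a median of 0.21, where 13.9% of all probes tested were higher and 13.5% lower. Zfp365 was higher by 3.07 and Zeb2, a repressor needed for myelination, by 1.97, and Gli3, a hedgehog effector (-2.11), and Sox11, a factor of young neurons (-1.78), were lower. In SNM knockdown cells 7 were higher and 6 lower, with a median of -0.09, led by the forebrain homeobox genes Dlx1 (2.96) and Dlx2 (2.64). Myrf, the regulator that acts with Sox10 on myelin genes, listed as Gm98, was detected on none of the neuronal arrays.

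Signals that act on the lineage were mixed too. Of 29 ligands and receptors 21 were tested at the neuronal stage, with 9 higher, 3 lower and a median of 0.22. Of all probes tested there, 13.9% were higher and 13.5% lower. Gpr17, a receptor of committed precursors, was higher by 5.89, Cntn1 by 2.73 and the ligand Shh by 2.61, and the growth factor Igf1 was lower (-2.61). Of those tested in SNM cells 8 of 22 were higher and 3 lower. Shh was higher by 5.15 there, and its receptor Ptch1, also a target of the pathway, by 1.23. Gli1, another target, was detected on none of the neuronal arrays.

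**Figure D4:**
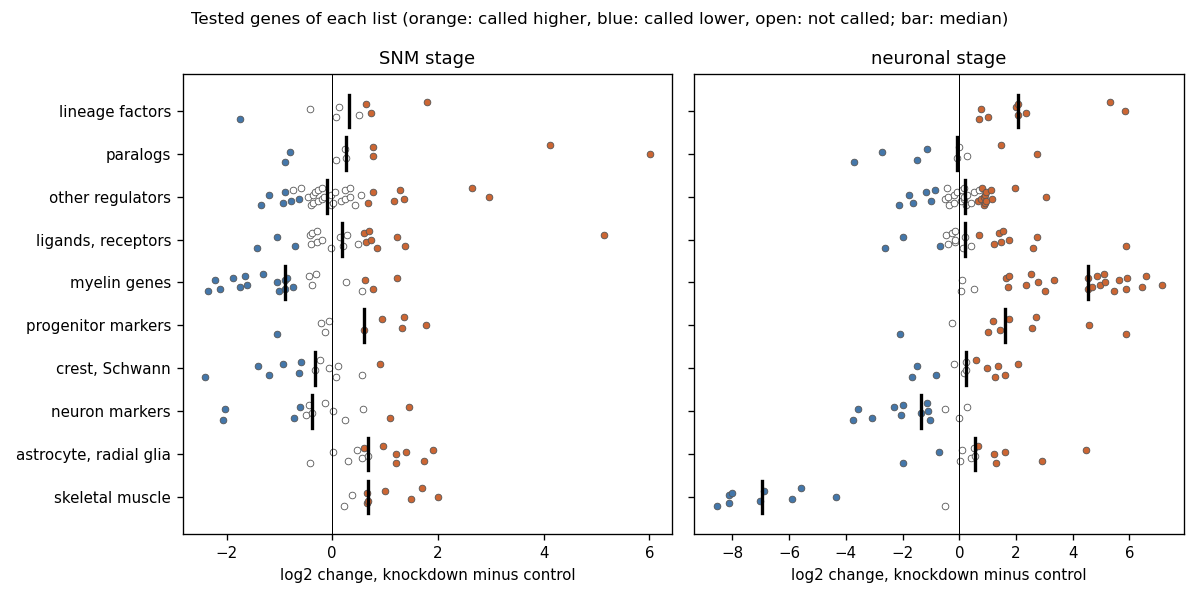
Log2 difference between HPRT-knockdown and control cells (horizontal axes, of different range) at the SNM stage (left) and the neuronal stage (right) for the tested genes of 10 lists, 1 point per gene, with the median of each list as a black bar. The medians of the lineage factors are 0.31 and 2.08, those of the myelin genes -0.89 and 4.55.

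The markers of the cells that express these factors moved with them at the neuronal stage. Of 28 myelin and oligodendrocyte genes on the array 25 were tested and 22 were higher in the knockdown cells, with a median of 4.55. The summed signal of the myelin genes ran from 10386 to 12282 on control and from 109624 to 120793 on knockdown arrays. Summed signals here and below are of deposited intensities, without background correction or normalisation, so every probe adds its background. The undetected Zfp488 probe, for example, read 62.17 on average in control neuronal cells. Of these genes 17 were detected on all 3 control and 25 on all 3 knockdown neuronal arrays. Those tested through the knockdown arrays alone had their direction fixed by the detection filter. At the SNM stage the myelin genes detected on all 3 arrays numbered 21 in control and 19 in knockdown cells. In SNM cells 3 of 22 were higher and 14 lower, with a median of -0.89, and the summed signal was 19612 to 21690 in control and 9119 to 10491 in knockdown cells. Progenitor markers, with 8 of 10 higher and 1 lower at the neuronal stage, were higher in 5 of 9 cases and lower in 1 at the SNM stage as well, with medians of 1.60 and 0.60. Cspg4, a proteoglycan of these precursors, was higher by 1.18 in neuronal knockdown cells, and their receptor Pdgfra differed by -0.25 and was not called.

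The same factors work in other cell types, whose markers were followed beside them. Of all probes tested, 13.9% were higher and 13.5% lower in neuronal knockdown cells. Of 20 neural crest, Schwann cell and melanocyte markers, which Sox10 also serves, 6 of 13 tested were higher and 3 lower in neuronal knockdown cells, with a summed signal of 8003 to 9111 in control and 10254 to 12516 in knockdown cells. Of 13 ventral spinal cord and motor neuron markers, where Olig2 and Nkx6-2 act, 3 of 7 tested were higher and 3 lower. Isl1 was lower (-2.81) and Mnx1 was detected on no neuronal array. Of 13 pancreatic endocrine markers, where Nkx2-2 and Myt1 act, 4 of 4 tested were lower, and Pdx1 and Ins2 were detected on none of the neuronal arrays.

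Other cell types differed at the same stage, where 13.9% of all probes tested were higher and 13.5% lower in knockdown cells. The summed signal of 10 skeletal muscle markers was 55171 to 65527 on the control and 768 to 884 on the knockdown neuronal arrays, with 9 of 10 lower. The knockdown sum includes the background of each probe. For 15 neuron markers it was 14096 to 16475 and 7104 to 8687, with 10 of 13 tested lower. For 13 astrocyte and radial glia markers it was 17477 to 20647 and 23284 to 26518, with 6 higher and 2 lower. Of the muscle markers 10 were detected on all 3 control and 4 on all 3 knockdown neuronal arrays, and of the neuron markers 13 and 11. Muscle and neuron markers tested through the control arrays alone had their direction fixed by the detection filter. At the SNM stage the muscle markers summed to 1889 to 1985 in control and 3148 to 3345 in knockdown cells, and the astrocyte and radial glia markers to 20569 to 22482 and 29531 to 35509. All 6 pluripotency markers were lower in knockdown neuronal cells, with a median of -1.92 and summed signals of 8128 to 10279 in control and 4076 to 4189 in knockdown cells. Sox2, which was counted among the regulators and not among these 6, was higher by 1.13 (adjusted p = 1.92e-06 from limma). Of 10 microglia markers 7 were detected on none of the neuronal arrays of either cell type. The part of these other cells in the differences of the lineage factors was not tested.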

How the data were processed

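The authors deposited for each array the average bead signal intensity of 45281 probes, without background subtraction or normalisation, and the detection p-value of each probe. Samples were grouped by their titles, which also number the arrays, while the description field gives 1 and the same replicate number for all 18. Gene symbols were taken from another deposited table, whose 72 columns of per-sample values, which could not be paired with samples, were not used. The array files name no genome build. Signals were processed in R 4.3.3 by the neqc function of limma 3.58.1 (background from the detection p-values, offset 16, quantile normalisation, log2), and a single linear model with a mean for each of the 6 conditions was fitted over the 18 arrays (lmFit, contrasts.fit, eBayes). All tests are two-sided, and p-values were adjusted over all probes tested. On data simulated for the neuronal comparison, with 200 of 19708 probes changed by 2-fold, the fit recovered 94% of the changed probes with 4 false calls. The simulated noise was independent between arrays and had the size of the spread between arrays of a pool. Far fewer probes were changed than were called in the data. False calls from differences between cultures are therefore not measured by it. Where a probe was detected on none of the 3 arrays of a condition, folds are lower bounds against the lowest detected signal of each array, or the probe's own signal where higher. Promoter sequences came from RefSeq (GRCm38.p6). The 9 genes, the gene lists and the tests were chosen with earlier results of these data known. Some genes are in more than 1 list, among them Gpr17, Pdgfra, Sox9 and Nkx6-1, so the lists are not separate. Named genes are all 9 members, genes of the lists with the largest called changes or with a defining role, and the 5 genes nearest to a member by Pearson's r. Pairing by array number was checked from the correlation of deviations between knockdown and control arrays, which was 0.518, 0.107 and 0.507 at the SNM stage, -0.128, -0.011 and 0.113 at the ES stage and 0.637, 0.092 and 0.348 for neuronal cells. Alternatives tried were other normalisations, detection filters and minimum changes, the array number as a block, means of a gene's probes, the t-tests of the study's methods, only the arrays compared, and each array left out in turn. The number of arrays limits the precision of every mean, and with 1 RNA pool per condition the spread between cultures was not measured.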

Additional observations from a re-analysis of the deposited data

Results flagged for a closer look

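The knockdown effect of these results differed between stages in the interaction test of limma. From the ES to the SNM stage the log2 difference between knockdown and control cells fell by 1.65 for Sox10 (adjusted p = 1.93e-08 from limma) and grew by 1.52 for Nkx6-2 (adjusted p = 5.21e-05), 1.07 for Nkx2-2 (adjusted p = 1.1e-05) and 1.05 for Sox8 (adjusted p = 0.0208). Of these only Nkx2-2 was above background widely enough to be tested at the ES stage, by its brighter probe. Its dimmer probe, not detected at the ES stage, gave 0.48 (adjusted p = 0.0117 from limma), under the 1.5-fold minimum. For Sox10, Nkx6-2 and Sox8 the values set the SNM difference against ES signals at or near background. The growth for Sox8 was no longer called without control ES array 1 (0.85), without control ES array 3 (0.87) or without control SNM array 2 (0.90).

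From the SNM to the neuronal stage it grew by 7.60 for Sox10, 4.68 for Nkx2-2, 1.96 for Olig2, 1.62 for Sox8, 1.59 for Olig1, 1.43 for St18, 0.71 for Zfp488 and 0.70 for Myt1, with adjusted p-values from 4.01e-17 (Sox10) to 0.000932 (Zfp488) in limma. Zfp488 was detected only in knockdown neuronal cells, and its value was not called without knockdown neuronal array 1 (0.55).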

How the results depend on the processing

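No called difference of a lineage factor changed sign under any alternative run. With the array number as a replicate block, 81 of 81 calls were as without it, for example 5.85 for Sox10 at the neuronal stage. The count of 0 genes lower at the ES stage became 1 with no minimum change (Nkx2-2, -0.43) and ran from 0 to 1 when each array was left out, with Sox8 at -0.69 without control ES array 2. At the SNM stage the 3 genes higher became 1 with quantile normalisation or 75th percentile scaling without background correction, 1 with a 2-fold minimum and 1 by the methods' paired t-test after Benjamini-Hochberg adjustment. In each of these Nkx2-2 and Sox8 lost their calls. The 1 gene lower there became 2 with no minimum change, with St18 at -0.42. The 5 genes lower in control cells from the SNM to the neuronal stage became 3 with a 2-fold minimum. Zfp488 lost its neuronal call with quantile normalisation (0.37) or 75th percentile scaling (0.41) without background correction, with a 2-fold minimum, and by the paired t-test, and was not tested at a detection p-value under 0.01. Without quantile normalisation the median of all probes from the ES to the SNM stage moved by 0.28 in control and 0.23 in knockdown cells, where 0 of 81 results lost a call. Causes were not tested. Signals near the background, as those of Olig2 and Zfp488, limit what folds can be measured.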
